A study of Homo sapiens with 8 samples.

Results

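A total of 415 distal regions stood higher in accessibility rank in both libraries of SCF-treated cells than in both libraries of PBS-treated cells. SCF is stem cell factor, the ligand of the Kit receptor, and PBS is the phosphate-buffered saline given in its place. The regions came from ATAC-seq peak lists of HUDEP-2 cells, an immortalized human erythroid precursor line grown as a single line. Peaks of the 4 lists were merged wherever they shared 1 bp, which gave 43654 regions, of which 22398 held a peak in all 4 lists. Of these, 9105 were distal, with the summit more than 1 kb from any annotated transcript start. Each peak was given a percentile rank of its fold enrichment within its own list, where 100 is the most enriched peak, and the best peak stood for a region. A distal region was kept if its lower SCF rank was at least 10 points above its higher PBS rank. The 415 regions were 4.56% of the 9105, a share that the selection itself sets and from which nothing is read. A site without a peak in PBS cells could not enter the set, so the regions are sites open in both conditions that changed place in the ranking.

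Both groups carried the control guide sgControl and had been expanded with dexamethasone, SCF, erythropoietin and doxycycline. They were then starved of these factors for 5 h and treated for 1 h, with PBS or with SCF at 50 ng/ml. There were 2 libraries per treatment, described as biological duplicates in the methods of the study. Samples with a guide against EGR1 were not analysed here.

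Kit is a receptor tyrosine kinase on blood progenitors and mast cells. SCF binding pairs Kit receptors and starts the RAS-MAPK and PI3K-AKT cascades, and immediate early genes, including the FOS and JUN members of AP-1, follow within minutes. AP-1 binds the DNA word TGANTCA, where N is any base, whereas the erythroid regulator GATA1 and its relative GATA2 bind AGATAA and TGATAA. Distal open chromatin commonly marks enhancers, cis-elements that can act on a gene from a distance.

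The libraries differed in size and depth. The lists held 30240 and 33616 peaks for PBS replicates 1 and 2, and 29269 and 33324 for SCF replicates 1 and 2. Depth, recovered from the deposited values and set to 1.00 for PBS replicate 1, was 1.42 for the other PBS library and 0.883 and 0.843 for the SCF libraries. Both SCF libraries were thus shallower than both PBS libraries, and the part of depth in the ranks was not tested. Of 8 erythroid genes looked up as a check of the line (GATA1, KLF1, TAL1, GFI1B, KIT, EPOR, ALAS2 and ANK1), 7 had a promoter peak in all 4 lists, the exception being ALAS2.

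The sequence around the summit shows what the regions can hold. Printed below are 201 bases (GRCh37/hg19, plus strand) around the summit of 8 regions, each called by its nearest protein-coding gene. The first 4 are among the regions with the widest separation between SCF and PBS ranks: SFMBT2, CRTAM and RAP1A hold an AP-1 word, and C2CD4A holds none. BACH2, JAK1, ITGB3 and E2F3 were added after the values were seen, as regions near genes of known function that hold an AP-1 word. Capitals mark AP-1 words and GATA words on either strand.
SFMBT2, chr10:7070270-7070470: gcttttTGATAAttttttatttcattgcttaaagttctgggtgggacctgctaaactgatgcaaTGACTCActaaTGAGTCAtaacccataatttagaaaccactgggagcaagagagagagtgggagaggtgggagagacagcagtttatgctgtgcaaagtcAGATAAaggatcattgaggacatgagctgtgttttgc
CRTAM, chr11:122727440-122727640: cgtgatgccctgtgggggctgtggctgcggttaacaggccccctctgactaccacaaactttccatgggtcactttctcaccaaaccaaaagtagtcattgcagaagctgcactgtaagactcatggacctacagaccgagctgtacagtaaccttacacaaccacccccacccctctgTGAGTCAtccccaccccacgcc
RAP1A, chr1:112135583-112135783: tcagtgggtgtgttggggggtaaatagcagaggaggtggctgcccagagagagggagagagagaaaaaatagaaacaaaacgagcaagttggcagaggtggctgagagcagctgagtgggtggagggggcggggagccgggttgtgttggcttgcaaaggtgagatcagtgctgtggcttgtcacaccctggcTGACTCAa
C2CD4A, chr15:62386705-62386905: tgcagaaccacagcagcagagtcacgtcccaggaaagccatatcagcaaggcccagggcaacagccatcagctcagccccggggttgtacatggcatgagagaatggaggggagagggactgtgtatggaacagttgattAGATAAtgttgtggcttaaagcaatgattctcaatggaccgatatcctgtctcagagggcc
BACH2, chr6:91078890-91079090: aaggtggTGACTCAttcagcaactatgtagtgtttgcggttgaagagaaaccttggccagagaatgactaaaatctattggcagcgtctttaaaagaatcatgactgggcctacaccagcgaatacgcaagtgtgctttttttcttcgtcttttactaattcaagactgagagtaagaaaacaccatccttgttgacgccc
JAK1, chr1:65487627-65487827: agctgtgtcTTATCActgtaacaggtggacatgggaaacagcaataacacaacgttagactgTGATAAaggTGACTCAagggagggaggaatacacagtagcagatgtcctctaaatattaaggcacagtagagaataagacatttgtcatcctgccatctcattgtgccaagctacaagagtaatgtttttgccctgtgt
ITGB3, chr17:45365964-45366164: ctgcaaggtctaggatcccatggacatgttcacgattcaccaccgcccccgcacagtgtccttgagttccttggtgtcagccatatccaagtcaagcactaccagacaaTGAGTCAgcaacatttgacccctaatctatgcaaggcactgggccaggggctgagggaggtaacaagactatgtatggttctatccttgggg
E2F3, chr6:20444993-20445193: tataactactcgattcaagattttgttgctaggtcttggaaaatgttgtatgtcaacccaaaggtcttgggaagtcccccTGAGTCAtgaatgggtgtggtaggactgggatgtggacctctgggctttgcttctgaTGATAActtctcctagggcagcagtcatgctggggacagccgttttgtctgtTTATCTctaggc
The SFMBT2 region held a pair of AP-1 words, the nearer 22 bp from the summit, flanked by 2 GATA words. In the ITGB3 region the AP-1 word lay 12 bp from the summit, and in the E2F3 region 17 bp. In the JAK1 region the AP-1 word lay 26 bp and the nearest GATA word 35 bp from the summit. The C2CD4A region, the one with the widest separation, held a GATA word and no AP-1 word.

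In PBS cells the 415 regions were ordinary to weak peaks, and in SCF cells they were above the middle of the distal ranking. Their median ranks were 32.7 and 34.3 in the PBS libraries (replicates 1 and 2, the order kept throughout) and 57.1 and 59.5 in the SCF libraries. The other 8690 distal regions had median ranks of 51.0 and 55.8 in PBS and of 48.3 and 55.6 in SCF. Median fold enrichment of the 415 over the local background was 5.56 and 5.28 in PBS and 8.18 and 7.88 in SCF, beside 7.28, 7.32, 7.16 and 7.43 for the other distal regions. Since the rule chose the regions on these ranks, the values describe the set and test nothing.

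**Figure D1:**
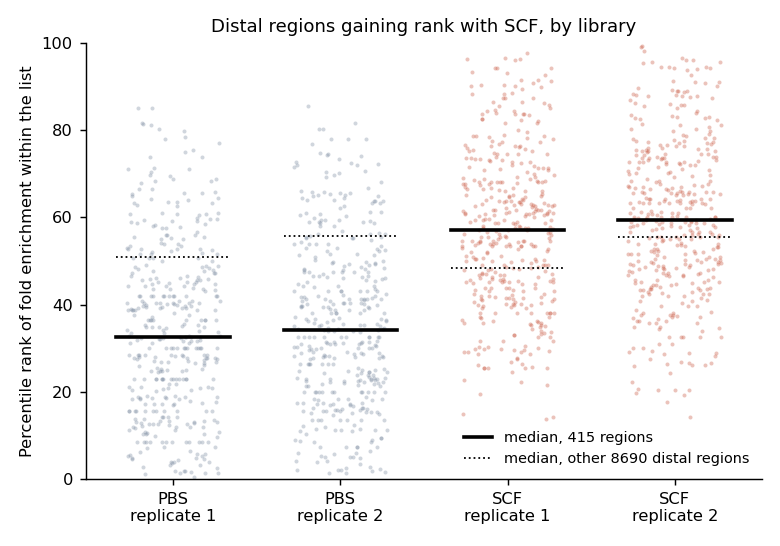
Percentile rank of fold enrichment (vertical axis, 0 to 100) of the 415 distal regions in each of the 4 libraries, with 1 point per region, solid lines at their medians and dotted lines at the medians of the other 8690 distal regions. The medians of the 415 lie at 32.7 and 34.3 in PBS and at 57.1 and 59.5 in SCF, so the regions move from below to above the dotted lines.

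The separation between the lower SCF rank and the higher PBS rank, called the gap here, had a median of 14.6 points and reached 37. It was at least 15 points in 197 regions, at least 20 in 73 and at least 30 in 4. The lower SCF fold enrichment and the higher PBS fold enrichment stood in a ratio of 1.43 at the median, with a range of 1.18 to 2.52. Within a treatment, the SD of a region's ranks had a median of 4.07 points in SCF and 4.15 points in PBS (n = 2 libraries each), beside 7.42 and 6.65 points over all distal regions. The rule itself favours a small spread within a treatment. Pileup is the whole-number count over a summit, recovered from the deposited values. What the authors' caller counted is not given, and the counts are called fragments here. Pileup was higher in both SCF libraries than in both PBS libraries in 234 of the 415 regions, and in 380 of all 9105 distal regions. Since the deeper PBS libraries collect more fragments, raw pileup and rank need not move together. The regions at the edge differed little: near COLQ and DTNBP1 the gap was just inside 10 points, and near CDX1 and SLC45A1 just outside it. The COLQ region had ranks of 48.7 and 43.1 in PBS and 61.6 and 58.7 in SCF, and the CDX1 region had 53.1 and 49.1 in PBS and 63.1 and 78.1 in SCF.

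The same condition was read for the other ways of dividing the 4 libraries into 2 pairs, each of which shares its libraries with the SCF and PBS pairs. Without any limit on the gap, both SCF ranks lay above both PBS ranks in 1664 distal regions (18.3%) and below them in 1542 (16.9%). In the reverse direction at the 10-point limit, 381 distal regions (4.18%) ranked higher in PBS. Both replicate 2 libraries ranked higher than both replicate 1 libraries in 715 regions (7.85%), and the reverse held in 109 (1.20%). The crossed pairs gave 297 (3.26%) and 254 (2.79%). The number 415 was therefore within the range of the other divisions, and the division by replicate number gave more. After ranking anew among the 22398 shared regions, which removes differences in list length, the SCF division gave 525 and the replicate divisions 401 and 270. The PBS-over-SCF count was then 339 and the crossed counts were 332 and 282, so that the SCF division was the highest of the 6 under that ranking.

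The divisions differed in a feature of sequence that the rule did not use directly. The summit was taken from the library in which a region ranked highest. It was thus an SCF summit in each of the 415 regions and a PBS summit in each region ranked higher in PBS. The part of this choice in the shares was not tested. The AP-1 word lay within 100 bp of the summit in 109 of the 415 regions, or 26.3% (95% Wilson interval 22.3 to 30.7). The share was 4.72% (3.01 to 7.34) in the regions ranked higher in PBS. It was 10.3% and 7.34% in the replicate divisions and 10.8% and 11.4% in the crossed divisions. After the ranking among shared regions the SCF-gaining share was 25.7%, and the other 5 shares lay between 5.31% and 11.7%. The intervals cover counting error only and treat regions as independent, which regions measured in the same 4 libraries are not.

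**Figure D2:**
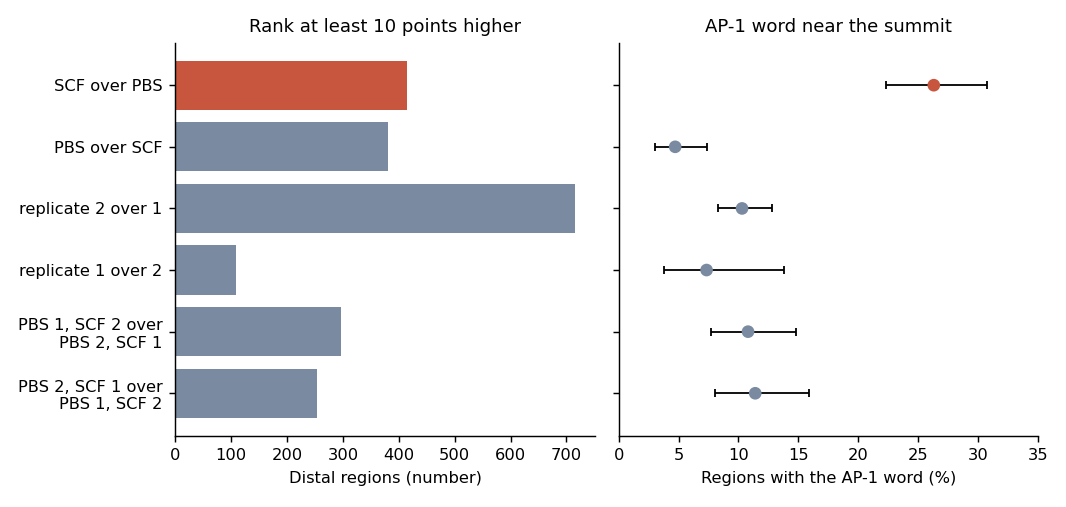
Left, number of distal regions (horizontal axis) ranked at least 10 points higher in one pair of libraries than in the other, for the 6 ordered divisions of the 4 libraries. Right, percent of those regions with an AP-1 word within 100 bp of the summit, with 95% Wilson intervals as bars. The SCF division (red) gives 415 regions, fewer than the 715 of replicate 2 over replicate 1, but its AP-1 share of 26.3% lies above the other 5 shares.

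Compared with the other 8690 distal regions, of which 11.4% held the AP-1 word, the SCF-gaining regions held it more often by 14.9 percentage points (95% Newcombe interval 10.8 to 19.4). The difference from the PBS-ranked regions was 21.5 points (16.8 to 26.3). Base composition moved with the word, so the comparison was repeated in 3 groups of regions of rising GC content. The shares were 31.2% against 14.1%, 26.6% against 13.3% and 19.5% against 6.58%, with all 3 intervals of the difference above 0. Rank in PBS also differed between the sets by construction. Within 3 groups of rising PBS rank, the AP-1 share of the SCF-gaining regions was 22.6%, 33.0% and 34.1%, beside 10.9%, 12.1% and 11.0% for the other distal regions.

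The AP-1 share followed the rank difference across all distal regions and not merely beyond the 10-point limit. Regions were grouped by mean SCF rank minus mean PBS rank. The share was 5.02% of 458 regions with a difference under -20 points, 10.3% of 1607 regions between -5 and 0, and 12.2% of 1210 regions between 5 and 10. It was 18.9% of 787 regions between 10 and 15, 22.1% of 489 between 15 and 20, and 27.0% of 440 regions at 20 points or more. The GATA share was 41.7% in the lowest group, 51.0% between 10 and 15 points, and 45.9% in the highest group. Among the 415 themselves a wider gap did not carry a higher AP-1 share. It was 30.1% in the 113 regions with gaps of 10 to 12 points and 22.9% in the 105 with gaps of 12 to 15. It was 23.4% in the 124 with gaps of 15 to 20 and 30.1% in the 73 with gaps of 20 or more.

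**Figure D3:**
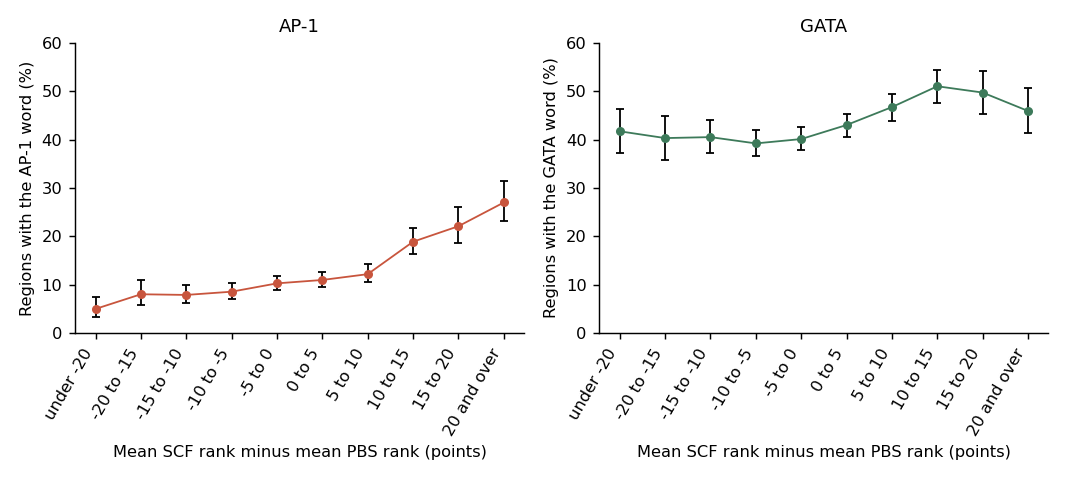
Percent of distal regions with an AP-1 word (left) or a GATA word (right) within 100 bp of the summit, by mean SCF rank minus mean PBS rank in points, over all 9105 distal regions, with 95% Wilson intervals as bars. The AP-1 share goes from 5.02% in the lowest group to 27.0% in the highest, while the GATA share lies between 39.2% and 51.0%.

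The position of the AP-1 words was read against the summit. The 109 regions held 128 words, and 16 regions held more than 1. The median distance from summit to nearest word was 41 bp, beside 50 bp in the other distal regions with a word. A word lay within 25 bp of the summit in 33.9% of the 109 regions (25.7 to 43.2), beside 23.9% (21.3 to 26.6) elsewhere. The centre base was G or C, as in the classical TPA response element, in 83.6% of words (76.2 to 89.0), beside 77.0% (74.4 to 79.4). With the search narrowed to 50 bp on each side the shares were 14.2% and 5.17%, and widened to 250 bp they were 38.8% and 23.6%.

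**Figure D4:**
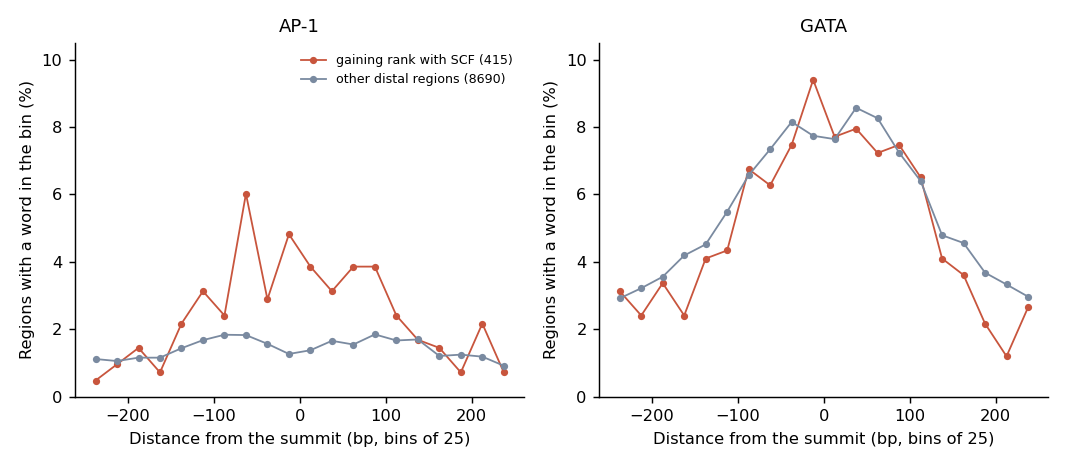
Percent of regions with an AP-1 word (left) or a GATA word (right) in each bin of 25 bp, by distance from the summit in bp, for the 415 SCF-gaining regions (red) and the other 8690 distal regions (grey). Within 100 bp of the summit the AP-1 line of the SCF-gaining regions lies between 2.41% and 6.02% per bin and that of the others between 1.27% and 1.85%, while the GATA lines run close together.

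GATA words were present in 48.0% of the 415 (43.2 to 52.8) and in 43.0% of the other distal regions, a difference of 4.93 points (0.0467 to 9.84). Against the regions ranked higher in PBS, with 37%, the difference was 10.9 points (4.07 to 17.7). By GC content the difference was -3.20 points (-11.5 to 4.53), 9.20 points (1.19 to 16.9) and 1.99 points (-4.11 to 10.2) from low to high GC, so that only the middle group had an interval above 0. By PBS rank, the GATA share was higher in the SCF-gaining regions than in the other distal regions in each of the 3 groups. It was 50.5% of 97 regions against 43.7% in the middle group, and 70.5% of 44 against 51.3% in the highest. These differences by rank were given no interval. Both words were present in 51 regions (12.3%), AP-1 alone in 58 (14.0%), GATA alone in 148 (35.7%) and neither in 158 (38.1%). Elsewhere in distal chromatin the shares were 5.60%, 5.77%, 37.4% and 51.2%. In the 51 regions with both words, the nearest pair lay 46 bp apart at the median, beside 38 bp in the other distal regions with both.

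A total of 14 words were compared, with no adjustment over them. RUNX factors, partners of AP-1 and GATA proteins at blood enhancers, bind TGTGGT, which was in 83 of the SCF-gaining regions (20%) and 15.2% of the others (difference 4.75 points, 1.10 to 8.93). The NF-E2 word, the AP-1 word with the letters TGC before it and so counted under both names, was in 2.65% and 1.17% (1.48 points, 0.286 to 3.52). The glucocorticoid response element was in 5 regions, 1.20% beside 0.345% (0.860 points, 0.155 to 2.45). Those 5 regions, named here after their values were seen, were nearest to TMEM87B, LY9, PYGB, KANK1 and MAU2. The EGR word GCGTGGG, bound by the early growth response factors, was in 3.61% and 2.59%, and its interval of -0.431 to 3.31 points held 0. Against the regions ranked higher in PBS, of which 1.05% held it, the difference was 2.56 points (0.417 to 4.92). Against the same regions the difference was 6.61 points (1.41 to 11.7) for RUNX and -6.48 points (-12.5 to -0.400) for the KLF word. The intervals of 8 further words also held 0: ETS ACTTCC (13.3% beside 11.8%), the E-boxes CAGATG and CAGCTG (34.5% beside 32.5%), KLF CCACCC (22.7% beside 25.6%), STAT TTCNNNGAA (6.99% beside 5.96%), CTCF AGGGGGC (6.27% beside 6.73%), C/EBP TTGCGCAA (0% beside 0.0230%), the serum response element (1.20% beside 0.955%) and the cAMP response element TGACGTCA (0.723% beside 0.253%). A match is a run of letters and does not show binding.

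The SCF-gaining regions lay where other distal regions lie. Introns held 259 (62.4%), exons 20 (4.82%) and the space between genes 136 (32.8%), beside 58.9%, 7.23% and 33.9% of the other distal regions. The summit was 13.7 kb from the nearest protein-coding start at the median, beside 13.4 kb. It was more than 50 kb away in 64 regions (15.4%), beside 17.5%. Median GC content of the 201 bases was 49.3% and 50.2%. By chromosome, chromosome 6 held 48 of the 415 (11.6%, beside 7.74%; difference 3.82 points, 1.03 to 7.30), 17 of them with an AP-1 word. Chromosome 22 held 3 (0.723%, beside 2.76%; -2.04 points, -2.64 to -0.621). On the other 22 chromosomes the interval held 0.

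The 10 regions with the widest gaps lay near genes of varied function, with 2 of the 10 holding an AP-1 word. The widest gap was at chr15:62386393-62387054, between genes and 27.6 kb from the start of C2CD4A, a nuclear protein induced by inflammatory cytokines. Its ranks were 42.1 and 46.5 in PBS and 83.5 and 86.3 in SCF, with 12 and 15 fragments over the summit in PBS and 24 in each SCF library. This region thus had more fragments in the shallower SCF libraries than in either PBS library. A region 5.08 kb upstream of RBM8A, which encodes a core protein of the exon junction complex, had ranks of 38.7 and 42.4 in PBS and 75.3 and 82.9 in SCF. The region near TMEM181 had 44.7 and 43.7 in PBS and 78.6 and 75.2 in SCF.

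The region of the 10 that held AP-1 and GATA words together lay 380 kb from SFMBT2, a Polycomb-type repressor, inside an intron of an unnamed transcript. Its ranks were 23.0 and 32.7 in PBS and 62.4 and 83.4 in SCF. The CRTAM region, in an intron of this immunoglobulin-type receptor gene, had 15.7 and 26.5 in PBS and 55.4 and 96.1 in SCF. The SD of the SCF ranks was 28.8 points there (n = 2), the widest of the 10, although both ranks stood above PBS. Single regions were not tested, because 2 libraries against 2 cannot give an exact permutation p below 0.333.

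Some regions were near the bottom of the PBS ranking. The DENND3 region, near a regulator of RAB12, had ranks of 4.44 and 4.87 in PBS and 54.2 and 33.9 in SCF. The region in an intron of ATAD5, which unloads PCNA from DNA after replication, had 8.57 and 7.45 in PBS and 38.2 and 50.9 in SCF. For these 2 regions pileups were 7 to 11 fragments in PBS and 11 to 19 in SCF, so that the values rest on few fragments. The remaining regions of the 10 lay near BIN3, CRYBG1 (in an exon) and TMEM87B, with PBS ranks between 17.3 and 38.9 and SCF ranks between 48.0 and 71.0.

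Nearest genes were then read against 12 lists of genes with known roles in Kit signalling and erythroid cells. The 415 regions had 399 different nearest protein-coding genes, and 22 regions (5.30%) were nearest to a listed gene, beside 4.89% of the other distal regions. Nearness assigns no target, since an enhancer can act on a gene farther away.

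For components of the Kit pathway the intervals of all 3 lists held 0, and the shares are read beside the 4.56% of all distal regions. Of 44 distal regions nearest to a Kit or MAPK signalling gene, 1 (2.27%) was SCF-gaining (difference -0.254 points, -0.516 to 0.865). None of the 28 regions nearest to PI3K, AKT and mTOR genes was SCF-gaining, and 1 of 50 (2.00%) nearest to immediate early and AP-1 genes was. The differences were -0.322 points (-0.465 to 0.600) and -0.323 points (-0.591 to 0.797). The region of the immediate early list lay 179 kb from MYC, the growth regulator, within an intron of PVT1, with ranks of 28.6 and 34.4 in PBS and 47.0 and 46.6 in SCF. It held neither an AP-1 nor a GATA word.

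Cytokine receptors and JAK-STAT genes held 4 SCF-gaining regions of 28 (14.3%), among them regions near IFNAR1, IL2RA and JAK1. As a share of each set this was 0.964% of the 415 and 0.276% of the others (difference 0.688 points, 0.0841 to 2.18). The JAK1 region, in an intron of the kinase that serves many cytokine receptors, had ranks of 30 and 32.7 in PBS and 55.7 and 65.5 in SCF. The IFNAR1 region lay in an intron of the neighbouring receptor gene IL10RB, with 20.4 and 17.6 in PBS and 39.3 and 42.5 in SCF. The JAK1 region held AP-1 and GATA words, and the IFNAR1 region a GATA word.

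Cell cycle genes held 4 of 23 (17.4%), the highest share of the 12 lists, near E2F3 and CCND3 (0.964% beside 0.219%; difference 0.745 points, 0.144 to 2.24). E2F3, an activator of S phase genes, was the sole gene nearest to 3 SCF-gaining regions, all in its introns. The region 54.8 kb from its start had ranks of 39.3 and 35.2 in PBS and 66.4 and 61.3 in SCF. The region at 41.2 kb, with the AP-1 word printed above, had 23.0 and 29.0 in PBS and 53.7 and 40.8 in SCF. The region at 6.30 kb was already strong, with 55.6 and 65.8 in PBS and 76.7 and 79.1 in SCF. The CCND3 region, in an intron of the cyclin D3 gene, had 1.56 and 15.7 in PBS and 40.1 and 47.3 in SCF, with 6 and 13 fragments in PBS and 15 and 14 in SCF. Of the 12 lists, these last 2 (cytokine receptors and cell cycle) had an interval above 0, and they rest on 4 regions each, 3 of which belong to a single gene in the cell cycle list.

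For erythroid transcription factors the interval held 0 (difference 0.0778 points, -0.550 to 1.58). Of 81 distal regions nearest to them, 4 (4.94%) were SCF-gaining, near BACH2, FOXO3, GFI1B and LMO2, and 6 ranked higher in PBS, near CBFA2T3, E2F2, GATA2, MYB and NFIA. The BACH2 region, 72.4 kb upstream of this heme-sensitive repressor that competes for AP-1-like sites, had ranks of 42.1 and 38.0 in PBS and 63.6 and 81.2 in SCF. The LMO2 region, in an intron of the adaptor that joins GATA1 and TAL1, held a GATA word and had 20.9 and 29.1 in PBS and 54.0 and 48.9 in SCF. Of 23 regions nearest to heme and iron genes, 1 was SCF-gaining, in an intron of ALAS2, the first enzyme of erythroid heme synthesis. It was among the strongest of the set, with 81.5 and 72.0 in PBS and 91.5 and 95.5 in SCF, and held a GATA word. Of 45 regions nearest to red cell membrane and globin genes, 2 were SCF-gaining, near ANK1 (ankyrin) and CD36 (a fatty acid transporter of early erythroid cells). Their ranks were 12 to 24.3 in PBS and 35.5 to 48.1 in SCF. Pileups near ANK1 were 13 and 17 in PBS and 18 and 17 in SCF. Near CD36 they were 13 and 20 in PBS and 19 and 20 in SCF.

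The remaining lists held 5 SCF-gaining regions. Of 64 regions nearest to actin cytoskeleton and adhesion genes, 4 (6.25%) were, among them regions near TPM4 and, in a pair, ITGB3, the beta 3 integrin subunit. The ITGB3 region with the AP-1 word had ranks of 13.4 and 35.2 in PBS and 68.8 and 61.0 in SCF. Its pileups were 10 and 13 in PBS and 23 and 21 in SCF. The TPM4 region had ranks of 10.3 and 17.3 in PBS and 36.0 and 37.2 in SCF. Its pileups were 8 and 11 in PBS and 12 and 11 in SCF. Of 17 regions nearest to megakaryocyte, myeloid and mast cell genes, 1 was SCF-gaining, 6.80 kb from CEBPB, with 43.6 and 48.4 in PBS and 58.7 and 67.4 in SCF. None of the 20 regions nearest to cell survival genes and none of the 29 nearest to glucocorticoid response genes was SCF-gaining, and both intervals held 0 (-0.355 to 0.691 and -0.479 to 0.589 points). The 22 regions are thus spread over 9 of the 12 lists.

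**Figure D5:**
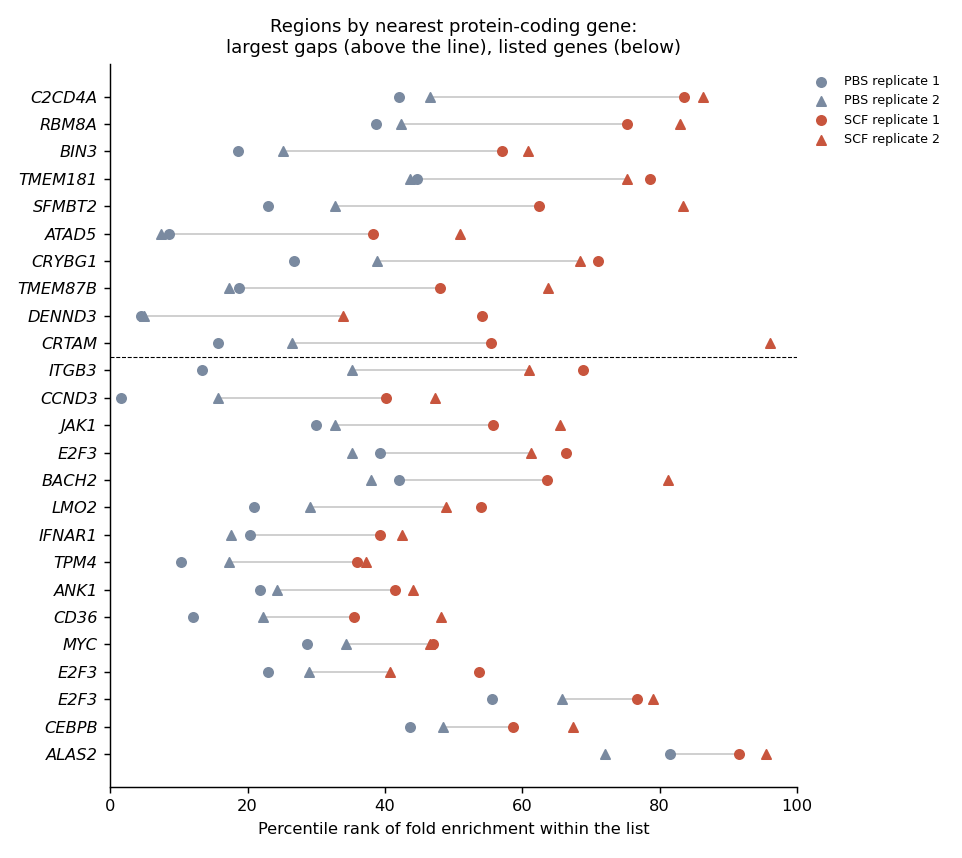
Percentile rank of fold enrichment (horizontal axis, 0 to 100) in the 4 libraries for the 10 SCF-gaining regions with the widest gaps (above the dashed line) and for regions nearest to listed genes (below), each row named by its nearest protein-coding gene, with circles for replicate 1, triangles for replicate 2, grey for PBS and red for SCF. Grey lines join the higher PBS rank to the lower SCF rank, from 46.5 to 83.5 for C2CD4A and from 81.5 to 91.5 for ALAS2.

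A further 14 genes were nearest to 2 SCF-gaining regions: BIN1, GSE1, ITGB3, JAZF1, MTSS1, PDIK1L, RREB1, SCAI, SIK3, SLC7A10, TANC1, TNS3, VEGFA and ZFAND3. The genes described in this paragraph and the next were chosen for their known roles after their values were seen. Both SCAI regions lay in introns of this gene, which encodes a suppressor of the serum response cofactor MRTF. The first had ranks of 58.4 and 47.5 in PBS and 90.1 and 80.3 in SCF and held AP-1 and GATA words, and the second had 36.4 and 43.1 in PBS and 64.1 and 73.9 in SCF. The VEGFA region 20.8 kb from this angiogenic growth factor gene held an AP-1 word and had 34.6 and 28.1 in PBS and 54.6 and 65.8 in SCF. The second lay 173 kb away, with 26.1 and 11.6 in PBS and 46.0 and 37.4 in SCF. In SIK3, a salt-inducible kinase gene, the region with an AP-1 word had 37.6 and 30.5 in PBS and 57.4 and 77.7 in SCF.

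Several regions lay at loci known from erythroid biology. A region at chr16:134645-135373 lay in an intron of NPRL3, the gene whose introns carry the alpha-globin enhancers. Its position was not compared with theirs, so it is not read as one of them. The NPRL3 region had ranks of 32.3 and 28.2 in PBS and 48.3 and 50.5 in SCF, and held neither an AP-1 nor a GATA word. The HBS1L region, beside the MYB locus, held a GATA word and had 5.82 and 2.64 in PBS and 35.4 and 31.0 in SCF. The region in RHEX, an erythropoietin receptor partner in erythroid progenitors, held GATA and RUNX words. It reached the top of the list, with 81.1 and 77.9 in PBS and 96.3 and 99.2 in SCF. Its pileups were 33 and 38 in PBS and 38 and 65 in SCF. The TMEM14C region, in a gene needed for porphyrin import into mitochondria, had 3.69 and 4.11 in PBS and 35.2 and 20.7 in SCF. These 4 regions held no AP-1 word, and in each of them both SCF ranks stood above both PBS ranks, as the rule requires. A region 4.35 kb from IL3, a cytokine of early progenitors, had 14.4 and 11.3 in PBS and 29.2 and 57.2 in SCF, with the SCF libraries far apart.

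Genes with MAP kinase symbols (MAPK, MAP2K, MAP3K and MAP4K) were nearest to 36 distal regions, of which 5 were SCF-gaining and 1, near MAP3K3, ranked higher in PBS. As a share of each set, these were 1.20% of the 415 and 0.357% of the other distal regions. The 5 lay near MAP4K4, MAP4K3, MAP2K3, MAP3K2 and MAPK14, the p38 kinase. The MAPK14 region held AP-1 and GATA words and had ranks of 55.0 and 55.2 in PBS and 73.8 and 66.6 in SCF. Its pileups overlapped between treatments, with 33 and 46 fragments in PBS and 43 and 38 in SCF. The MAP4K4 region held a GATA word and had 8.57 and 20.1 in PBS and 38.2 and 45.7 in SCF. These ranks rest on few fragments, 7 and 10 in PBS and 11 in each SCF library. This group was formed after the nearest genes had been read, so its count is a description.

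The promoters of the nearest genes showed no such shift at the median. The promoter of a gene was the highest ranked region within 1 kb of one of its starts. These promoters had a median PBS rank of 75.7, beside 73.9 for all promoter regions and 51.6 for all distal regions. The part of this high starting rank in the comparison was not tested. Of the 399 nearest genes, promoter regions called in all 4 lists could be assigned to give 309 regions, whose median difference between mean SCF and mean PBS rank was -0.376 points, beside -0.758 for all 13250 promoter regions. At the same 10-point limit, 1 of the 309 (0.324%), at POGK, ranked higher in SCF and 6 (1.94%) ranked higher in PBS, beside 1.18% and 2.25% of all promoter regions. For the 89 promoters assigned to regions with an AP-1 word the median difference was -0.789 points, and none met the limit in the SCF direction.

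The same held for distal neighbours. The 118 other distal regions within 10 kb of an SCF-gaining region had a median difference of -0.984 points, beside -0.428 for all other distal regions, and 45.8% of them had a higher mean rank in SCF, beside 48.1%. Within 50 kb, 476 neighbours had a median difference of -0.143 points. Of the 415 regions, 6 had another SCF-gaining region within 10 kb and 27 within 50 kb. Most of the 415 thus had no SCF-gaining neighbour at these distances. No such count is given for another set of regions, so it is not read as few or many.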

How the data were processed

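HUDEP-2 cells with sgControl were profiled by ATAC-seq after PBS or SCF (2 libraries each); the 4 sgEGR1 samples were not analysed here. The authors used the ENCODE ATAC-seq pipeline; bcl2fastq, Bowtie2 and SAMtools are named in the submitters' processing notes, and peak-calling settings are not given in the sources used here. The methods and notes name hg38, whereas the file headers and the series text name hg19, which was used (no peak ended beyond a GRCh37 chromosome). Libraries were called separately, without pooling. The deposited lists hold a score (not used), a fold enrichment, and the −log10 p-value and −log10 q-value of each peak, as the authors' caller gave them. Fold enrichment was read as the ratio of summit pileup to local background, with a pseudocount of 1, which was inferred from the values. The lowest deposited −log10 q corresponds to a q-value of 0.0497. Lists are not normalized to each other, so ranks within a list were compared. Peak names inside the 2 PBS lists carry other replicate numbers than the labels, which were used here.

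Regions were merged at 1 bp overlap, and distances taken to GENCODE release 44 starts lifted to GRCh37, on 24 chromosomes. The whole-number summit pileup and local background that give both the deposited fold enrichment and −log10 p were recovered for 100% of peaks with a −log10 p under 300, to a relative tolerance of 0.0001; the lowest local background, corrected for peak width, gave relative depth. Total read numbers are unknown. Words were searched on both strands within 100 bp of the summit in the library where the region ranked highest. Shares have 95% Wilson intervals and differences 95% Newcombe intervals. The regions named are the 10 with the widest gaps, up to 2 per gene list, genes nearest to 3 or more regions, and the 2 on each side of the 10-point limit; sequences were printed for the 10 widest gaps outside chromosome 8, all with an AP-1 word and the first 2 without, except where an item is not reported here; other names are said to have been chosen after their values were seen. The members and lists were chosen with earlier results of these data known. The ranking code was run on simulated lists of equal length, with independent noise and every region called in all lists. The real lists differ in length, depth and regions called, so that run checks the code alone. Python 3.11.15, NumPy 2.4.6, pandas 2.3.3, SciPy 1.17.1, pysam 0.24.0 and matplotlib 3.10.9 were used. Alternatives covered the gap, the distance limit, the ranked column, list length, the q-value limit, merging, single libraries left out, pairing and the window.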

Additional observations from a re-analysis of the deposited data

How the results depend on the processing

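The number of distal regions gaining rank with SCF depended on the limits. It was 844 with a gap of 5 points, 73 with a gap of 20 points, and 173 when ranks were taken from recovered pileup over the library background, an alternative chosen after seeing the data. In 9 further settings it stayed within 1.5 times of 415. A similar count did not always mean the same regions. Of the 415, 62.4% were found again with ranks by −log10 p and 58.6% at a −log10 q of at least 5. With an equal number of peaks per list 75.4% were found again, and the rest of these 9 settings kept 80.5% or more. With ranks from pileup over the library background 35.7% were found again. With 1 library left out the condition is looser, and the number rose to 1054 without PBS replicate 1, 1518 without PBS replicate 2, 1810 when the first SCF library was dropped and 901 when the second was. The AP-1 share was 14.2% within 50 bp and 38.8% within 250 bp, windows that hold fewer or more bases, and 19.4% to 21.6% with 1 library left out. It lay within its interval in 13 other settings, and its difference from the other distal regions had an interval above 0 in every setting run. The GATA share was 54.3% with ranks among regions called in all 4 lists, 55.4% at a −log10 q of at least 5, 28.9% within 50 bp and 66.3% within 250 bp. Its difference from the other distal regions had an interval above 0 in 10 of 19 settings, including a gap of 5 points and ranks among shared regions, and an interval holding 0 in 9, including a gap of 20 points and ranks by −log10 p. The cause of these changes was not tested, except where the setting itself changes the condition or window. The deviations of same-numbered libraries from their treatment means had a correlation of 0.0103 over 9105 regions, and no label names a shared batch. A shift common to all regions would not change this correlation. Since peak names in the PBS lists carry other replicate numbers, the correlation does not settle whether the libraries are paired. With the replicate block, where each SCF rank was compared with the PBS rank of the same number, 694 regions passed, with an AP-1 share of 25.1%. Depth limits the weakest regions, whose summits rest on few fragments.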
